A study of Rattus norvegicus with 6 samples.

Results

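Injured sensory and motor neurons switch on a shared set of genes, and 8 of these axon injury response genes were followed in the spinal cord of rats with bone cancer pain. They were taken by gene symbol, 8 of the 30957 rows of the gene table: the transcription factors Atf3 and Sox11, the stress protein gene Gadd45a, Sprr1a, the peptidase gene Ecel1, and the neuropeptide genes Gal, Vip and Adcyap1. RNA was sequenced from the ipsilateral lumbar enlargement on day 14 after surgery on the tibia. In the 3 BCP samples the bone of female Wistar rats had received living Walker 256 cells, a rat mammary carcinoma line. In the 3 sham samples it had received Walker 256 cells killed by heat, so both groups had the bone operation and cell material. Each sample gave 1 library, and nothing in the labels says how animals relate to libraries, so p-values measure the spread between these samples. Gene counts summed to 11779485 to 15004290 per library.

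When a peripheral axon is cut or damaged, signals travel back to the cell body in the dorsal root ganglion or the ventral horn, and transcription there changes. ATF3, a stress-induced factor of the ATF/CREB family, is the usual marker of such neurons. Galanin, VIP and PACAP, which Adcyap1 encodes, are peptides that rise in axotomised sensory neurons and act on G protein-coupled receptors in the cord. The cell bodies of sensory neurons lie in the ganglia, outside the tissue sequenced here, while motor neurons lie within it. In bulk tissue, fewer cells of a type and less RNA per cell cannot be told apart.

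None of the 8 genes passed the test in either direction. Of the 7 with enough counts to test, 0 were higher and 0 were lower in BCP at an adjusted p under 0.05 (edgeR quasi-likelihood test, Benjamini-Hochberg over all 14908 genes tested). Over all genes tested, 15.8% were higher and 12.1% lower at that threshold, and 6.35% were higher and 0.107% lower when a change of over 2-fold was also required. At an unadjusted p under 0.05 there were 3 genes, Atf3, Gadd45a and Ecel1. DESeq2 called 1 gene, Atf3. The median log2 fold change of the 7 genes was 0.05, beside -0.01 for all genes tested. For 6 of the 7, the 95% interval of the log2 fold change lay within 1 in either direction, so that a change of 2-fold was outside it, and Atf3 was the exception.

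Per unit of length the genes sat at very different levels. On the authors' FPKM scale (fragment counts scaled for gene length and library depth), Gadd45a was highest at a mean of 14.6 over the 6 libraries, with a range of 12.9 to 17.4. Gal at 5.55, Adcyap1 at 5.19 and Ecel1 at 4.22 FPKM followed, and neighbours among these 3 overlapped in their ranges. Vip at 1.37, Atf3 at 1.10 and Sox11 at 0.988 FPKM came next, again with overlapping neighbours. Sprr1a was last at 0.0154 FPKM. Gadd45a was 2.62 times as high as Gal and Ecel1 3.08 times as high as Vip, and in both of these steps the library ranges did not overlap.

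**Figure D1:**
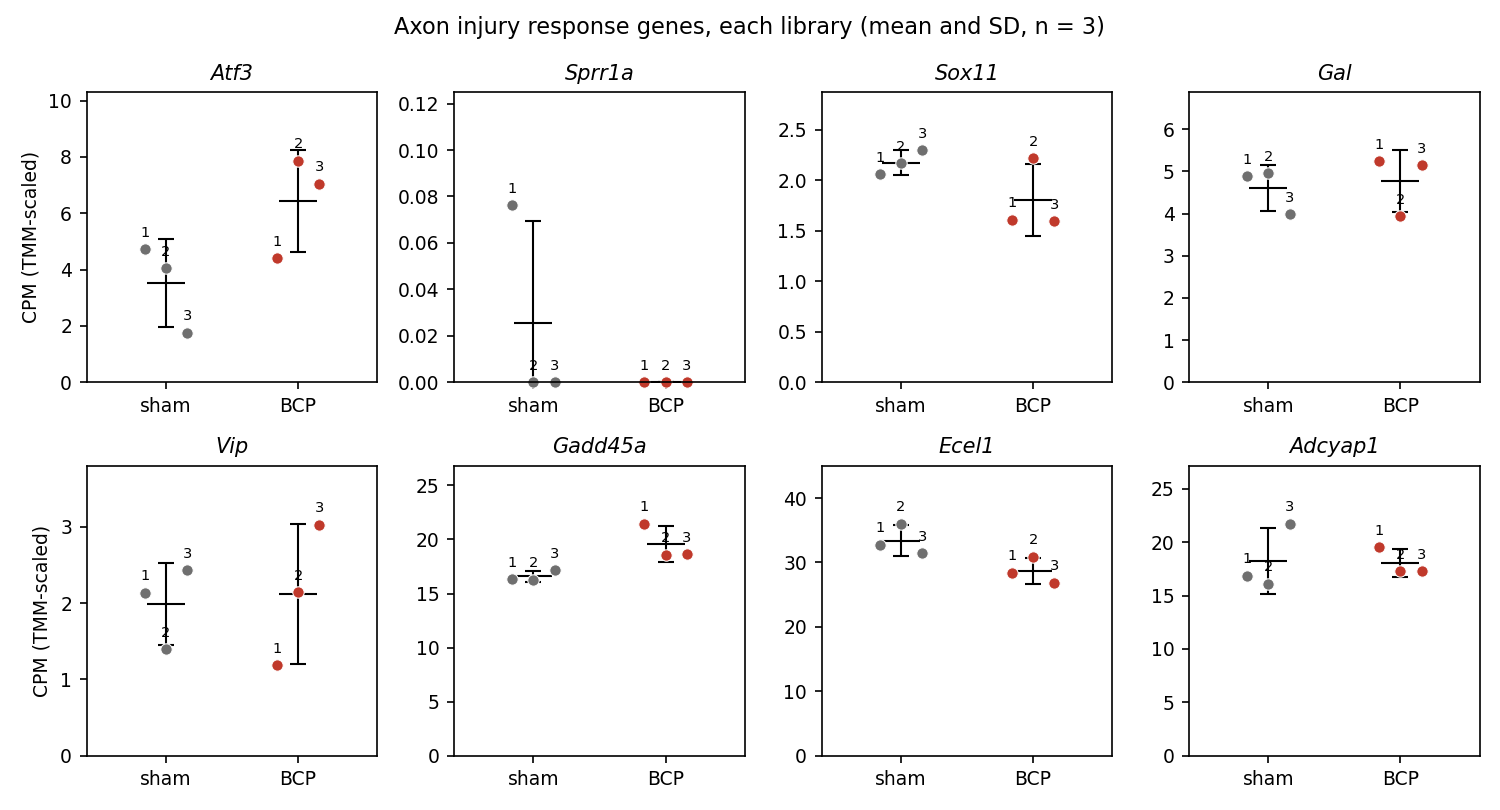
Level of the 8 axon injury response genes in each library, in CPM (counts scaled to library depth with TMM factors) on axes that start at 0. Points are libraries numbered by replicate, horizontal bars the mean and whiskers the SD of 3 sham (grey) or 3 BCP (red) samples. Atf3 reaches 7.86 CPM in BCP 2 while BCP 1 sits within the sham range, and Sprr1a has a count in 1 sham library alone.

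Atf3 (ENSRNOG00000003745, chr13:109817728-109849632 in Rnor_6.0) had the largest estimated change of the 7 and the least certain. Its counts were 62, 58 and 26 in sham 1, 2 and 3 and 52, 110 and 93 in BCP 1, 2 and 3. Scaled for depth these were 4.73, 4.05 and 1.76 CPM against 4.40, 7.86 and 7.04 CPM. BCP 2 and BCP 3 stood above every sham library, whereas BCP 1 lay below sham 1, so the groups overlapped. The mean was 3.51 ± 1.56 CPM in sham and 6.43 ± 1.81 CPM in BCP (SD, n = 3). The log2 fold change was 0.89 (SE 0.34, 95% interval 0.13 to 1.66), a ratio of 1.86 that could be as small as 1.09 or as large as 3.16, with an edgeR adjusted p of 0.0842. The call turned on single libraries and on the tool. Without sham 1 the log2 fold change was 1.16 with an adjusted p of 0.0395, and without BCP 1 it was 1.10 with an adjusted p of 0.0198. The other 4 omissions left Atf3 uncalled, with adjusted p up to 0.232. Their log2 fold changes ran from 0.56 without sham 3 to 1.02 without sham 2. DESeq2 gave an adjusted p of 0.0268 on all 6 libraries.

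Sox11 (ENSRNOG00000030034, chr6:46629974-46631983), a SoxC factor of developing and regenerating neurons, did not follow Atf3. Its levels were 2.06, 2.17 and 2.30 CPM in sham and 1.61, 2.22 and 1.59 CPM in BCP. BCP 2 fell among the sham libraries while the other 2 BCP libraries were below them. The log2 fold change was -0.26 (SE 0.28, interval -0.85 to 0.32) with an adjusted p of 0.544. Its estimate rests on 19 to 34 counts per library.

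Gadd45a (ENSRNOG00000005615, chr4:97782512-97784842) encodes a stress sensor that acts in growth arrest and DNA repair and is induced in sensory neurons after nerve injury. It stood at 16.3, 16.3 and 17.2 CPM in sham and 21.5, 18.6 and 18.6 CPM in BCP. All 3 BCP libraries were above all 3 sham libraries, though by a narrow margin. The mean went from 16.6 ± 0.501 to 19.6 ± 1.66 CPM (SD, n = 3), a log2 fold change of 0.24 (SE 0.10, interval 0.02 to 0.45) with an adjusted p of 0.101.

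Ecel1 (ENSRNOG00000019447, chr9:94239006-94250809) encodes a membrane metallopeptidase of the neprilysin family that injured neurons raise strongly. Here its estimate was below sham, at 32.7, 36.0 and 31.4 CPM in sham against 28.4, 30.9 and 26.9 CPM in BCP. The groups did not overlap. The log2 fold change was -0.22 (SE 0.09, interval -0.40 to -0.03), with an adjusted p of 0.0750 that became 0.0342 under upper quartile scaling. A lncRNA lay 5505 bp from Ecel1, NONRATT029623.2 at chr9:94231976-94233501, with 7, 5 and 3 counts in sham and 4, 3 and 1 in BCP, too few to test. No other lncRNA lay within 10000 bp of the 8 genes, and no other listed gene overlapped them.

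Sprr1a (ENSRNOG00000024028, chr2:192669143-192671059), a cornified envelope protein of skin that axotomised neurons also make, was practically undetected. It had 1 count in sham 1 and 0 in each of the other 5 libraries. A count of 0 allows up to 3 counts, which is 0.200 to 0.255 CPM per library and covers counting error only. Its relatives Sprr1b and Sprr3 had 0 counts throughout. Of 4 epidermis markers listed 1, Krt5, was at 0 in every library, and of 4 skeletal muscle markers listed 0 were. Krt1 and Krt10 of epidermis had 39 and 41 counts over the sham libraries and 12 and 25 over the BCP libraries. Col1a2 was also at 0 in every library although Col1a1 had counts in all of them, so a listed 0 need not mean absent RNA.

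**Figure D2:**
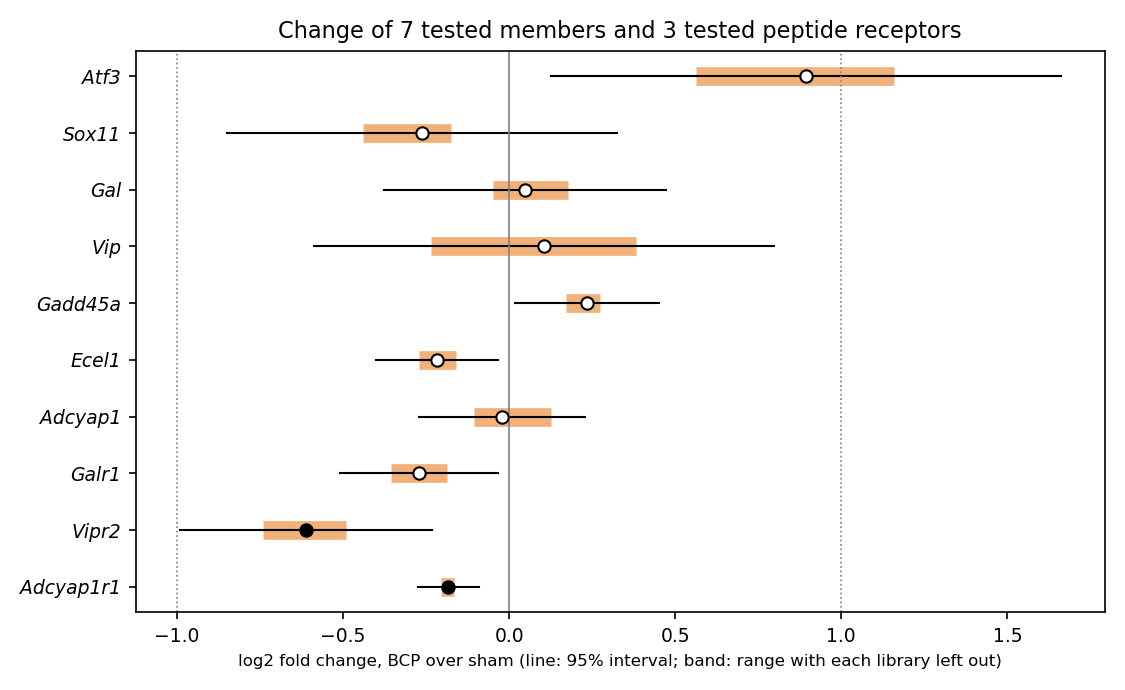
Log2 fold change of BCP over sham for the 7 tested axon injury response genes and the 3 tested receptors of their peptides. Circles are estimates, filled where the adjusted p is under 0.05, lines are 95% intervals, orange bands the range when each library is left out in turn, and dotted lines mark a 2-fold change. The interval of Atf3 passes 1, and the only filled circles are Vipr2 and Adcyap1r1, both below 0.

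None of the 3 neuropeptide genes differed by more than the spread between replicates. Gal (ENSRNOG00000015156, chr1:218652917-218657925), the galanin precursor, had 4.88, 4.96 and 3.99 CPM in sham and 5.24, 3.93 and 5.15 CPM in BCP. The groups interleaved, and the log2 fold change was 0.05 (SE 0.20, interval -0.38 to 0.47) with an adjusted p of 0.892. Adcyap1 (ENSRNOG00000049882, chr9:121706979-121725716) had 16.9, 16.1 and 21.8 CPM in sham and 19.5, 17.3 and 17.3 CPM in BCP. Sham 3 was the highest of the 6 libraries. The log2 fold change was -0.02 (SE 0.12, interval -0.27 to 0.23) with an adjusted p of 0.918, the tightest bound of these peptides. Vip (ENSRNOG00000018808, chr1:42169501-42177579) had 2.14, 1.40 and 2.43 CPM in sham and 1.18, 2.14 and 3.03 CPM in BCP. The lowest and the highest library were both BCP, which gave a log2 fold change of 0.10 (SE 0.33, interval -0.59 to 0.80) and an adjusted p of 0.857.

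ATF/CREB factors bind the cAMP response element TGACGTCA, and AP-1 dimers bind sites that fit the pattern TGANTCA. The 250 bases before the transcription start were searched for both, and for the core TGACG that the first motif contains, on both strands. In the search N stood for any base, so matches to the AP-1 pattern include sites looser than the AP-1 site itself. RefSeq's promoter table on GRCr8, a later assembly than the files' Rnor_6.0, held 7 of the 8 genes, without Atf3. The full element was in 0 of the 7 and in 1.83% of all 33469 promoters. The core was in 3 of them, Vip, Gal and Gadd45a, and in 21.2% of all promoters. The AP-1 pattern was in Sprr1a alone, as TGAGTCA at 2 places, and with any base at N in 7.33% of all promoters. The 4 promoters with a core or AP-1 match are shown so that the letters found can be seen, and none of them holds the full element. Capitals mark the match, and each sequence reads 5′ to 3′ toward the gene, Vip from chr1:44470230-44470479 on the plus strand and the others on the minus strand, Gal from chr1:210084573-210084822, Gadd45a from chr4:97486800-97487049 and Sprr1a from chr2:180752626-180752875.
Vip: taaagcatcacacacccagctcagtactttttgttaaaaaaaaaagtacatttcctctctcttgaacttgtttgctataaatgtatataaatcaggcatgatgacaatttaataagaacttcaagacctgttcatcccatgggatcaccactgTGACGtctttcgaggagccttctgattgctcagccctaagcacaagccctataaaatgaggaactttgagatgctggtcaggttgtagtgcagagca
Gal: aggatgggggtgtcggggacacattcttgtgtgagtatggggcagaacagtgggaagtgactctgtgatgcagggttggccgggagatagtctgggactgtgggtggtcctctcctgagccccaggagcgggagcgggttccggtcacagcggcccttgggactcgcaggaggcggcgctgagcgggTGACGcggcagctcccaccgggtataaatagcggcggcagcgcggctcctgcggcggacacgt
Gadd45a: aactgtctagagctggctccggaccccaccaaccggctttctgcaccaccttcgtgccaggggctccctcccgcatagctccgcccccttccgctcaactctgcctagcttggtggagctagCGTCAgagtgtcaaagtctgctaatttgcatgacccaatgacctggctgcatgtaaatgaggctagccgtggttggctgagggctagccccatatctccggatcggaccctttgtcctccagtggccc
Sprr1a: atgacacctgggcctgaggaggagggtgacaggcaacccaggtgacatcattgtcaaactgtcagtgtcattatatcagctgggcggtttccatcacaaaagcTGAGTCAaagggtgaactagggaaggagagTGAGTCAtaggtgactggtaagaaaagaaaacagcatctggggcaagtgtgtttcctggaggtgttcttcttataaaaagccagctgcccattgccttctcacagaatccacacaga
The core of Vip begins 97 bases before the start and that of Gal 63 bases before it. In Gadd45a it is on the opposite strand, 128 bases before the start, and the pair in Sprr1a begins 147 and 117 bases before the start. A match is only these letters, and no binding was measured.

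Of the 3 receptors of these peptides that could be tested, 2 were lower in BCP and 0 higher. Over all genes tested 12.1% were lower and 15.8% higher. Adcyap1r1, the PACAP receptor, was at 288, 297 and 292 CPM in sham and 269, 253 and 251 CPM in BCP. Every BCP library was below every sham library, with a log2 fold change of -0.18 (SE 0.04) and an adjusted p of 0.00378. Vipr2, which binds VIP and PACAP, fell from 7.90 ± 1.23 to 5.14 ± 0.744 CPM (SD, n = 3), a log2 fold change of -0.61 (SE 0.18, adjusted p 0.0151). That call was lost without sham 2, at an adjusted p of 0.0949, and without BCP 3, at 0.0686. Galr1, a galanin receptor, had 17.6, 15.4 and 19.4 CPM in sham and 14.5, 14.4 and 14.5 CPM in BCP, a log2 fold change of -0.27 with an adjusted p of 0.0863. Galr2 was at 0 in all libraries, which, as for Col1a2, need not mean absent RNA. Galr3 and Vipr1 had at most 8 counts in a library. Of the 9 tested genes of neuropeptide processing 4 were lower and 0 higher, namely the convertase gene Pcsk2, its helper Scg5, the amidating enzyme gene Pam and Chga, with log2 fold changes of -0.17, -0.18, -0.19 and -0.21. Scg5 was at the threshold, with an adjusted p of 0.0496 and overlapping groups, and DESeq2 gave it 0.0604. Leaving out 1 library ended the call of Scg5 (adjusted p up to 0.240 without BCP 3), of Pcsk2 (up to 0.121 without sham 3) and of Pam (0.0589 without BCP 3).

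**Figure D3:**
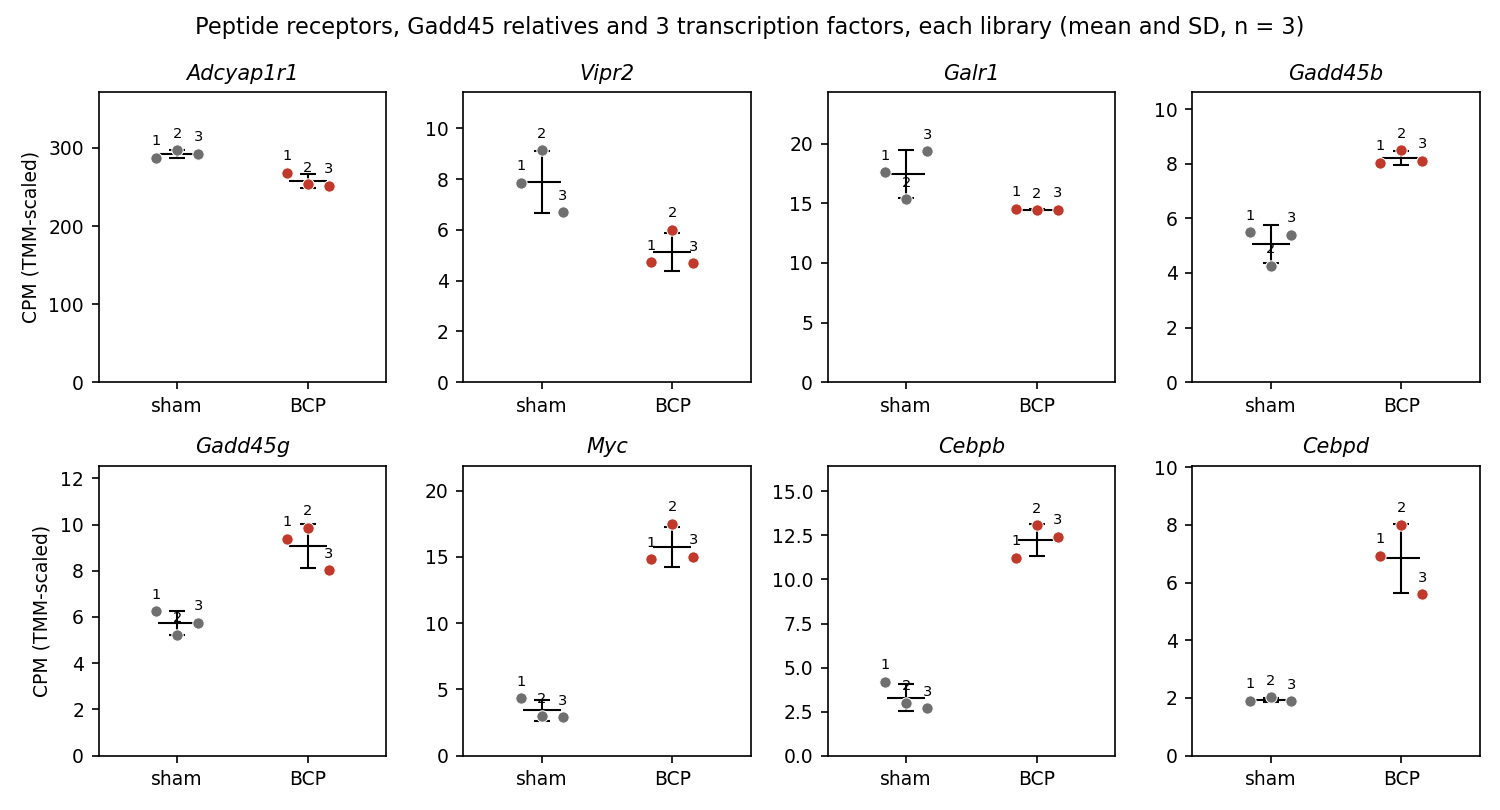
Level in each library of 3 receptors of the member peptides, of Gadd45b and Gadd45g, and of the transcription factors Myc, Cebpb and Cebpd, in CPM (TMM-scaled) on axes that start at 0. Points are libraries, bars the mean and whiskers the SD of 3 samples. Myc, Cebpb and Cebpd separate widely, while Adcyap1r1 shifts from 293 ± 4.79 to 258 ± 9.37 CPM.

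Some close relatives of the 8 genes were higher in BCP. Gadd45b rose by a log2 fold change of 0.70 (SE 0.17, adjusted p 0.0036) and Gadd45g by 0.66 (SE 0.16, adjusted p 0.00388), beside the 0.24 of Gadd45a, and the difference between these genes was not tested. Of 13 tested relatives 5 were higher and 0 lower, beside 15.8% and 12.1% of all genes tested. The others higher were Ece1, Atf1 and Batf. The calls of Ece1 and Atf1 were lost when single libraries were left out, at adjusted p up to 0.167 without sham 3 and up to 0.151 without BCP 3. Batf, a leucine zipper factor of lymphocytes, had 1, 2 and 0 counts in sham and 16, 28 and 23 in BCP, a ratio of 24.9 with a 95% counting interval of 8.15 to 124. Batf3 had 0 counts in sham and 8, 6 and 2 in BCP, at least 5.94-fold higher against a floor of 3 counts over the group.

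Of 17 tested rows of other transcription factors of the regeneration programme 11 were higher, 0 were lower and 6 were not called, with a median log2 fold change of 0.36. The shares over all genes tested were 15.8% higher and 12.1% lower. Myc went from 3.42 ± 0.805 to 15.8 ± 1.51 CPM, Cebpb from 3.30 ± 0.789 to 12.2 ± 0.928 CPM and Cebpd from 1.94 ± 0.0732 to 6.85 ± 1.20 CPM (SD, n = 3). Their log2 fold changes were 2.21, 1.90 and 1.81, the 3 of the list past 2-fold. Stat3, the cytokine-activated factor, rose by 0.80 (SE 0.06, adjusted p 2.37e-08), Klf6 by 0.84 and Hif1a by 0.58. The estimate of Atf3, 0.89 with a larger error, was above those of these last 3 genes, and its difference from them was not tested.

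Of 20 tested genes of axon growth 3 were higher and 5 lower, with a median log2 fold change of -0.07. The count of higher genes is near the 15.8% of all genes tested. That of lower genes is above the 12.1% of all genes tested, a difference that was not tested. Cd44, a hyaluronan receptor, rose from 45.5 ± 3.56 to 95.3 ± 10.3 CPM and the tubulin gene Tubb6 by a log2 fold change of 0.66, whereas Stmn4, Lgals1, Itga7 and L1cam fell by 0.31, 0.32, 0.37 and 0.20. The call of Tubb6 was lost without BCP 2, at an adjusted p of 0.0607, and that of L1cam without sham 3, at 0.0524, and without BCP 3, at 0.0577. Among other injury-induced peptides and cytokines 1 of 4 tested was higher, Csf1, the microglial growth factor, from 61.9 ± 4.55 to 90.8 ± 7.43 CPM. Nts, Cck and Bdnf were not called. Npy was at 0 in all libraries, which, as for Col1a2, need not mean absent RNA. Lif had 0, 1 and 2 counts in sham and 7, 11 and 5 in BCP, a ratio of 8.53 with a counting interval of 2.58 to 44.4.

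The list of damage-signalling kinases, their scaffolds and the Sarm1 axis of axon survival, which holds both kinases and other proteins, had 6 of 12 lower and 0 higher, with a median of -0.19. Among all genes tested 12.1% were lower and 15.8% higher. Map3k12, the dual leucine zipper kinase upstream of Atf3 induction, was at a log2 fold change of -0.34 (adjusted p 0.000163), Map3k13 and the scaffold gene Mapk8ip1 were each at -0.29, and the axon survival factor Nmnat2 was at -0.38. Over all 8 lists, 22 of 88 tested rows were higher, 19 were lower and 47 were not called, with a median of 0.00. Both of these counts lie above the shares of all genes tested, a difference that was not tested.

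**Figure D4:**
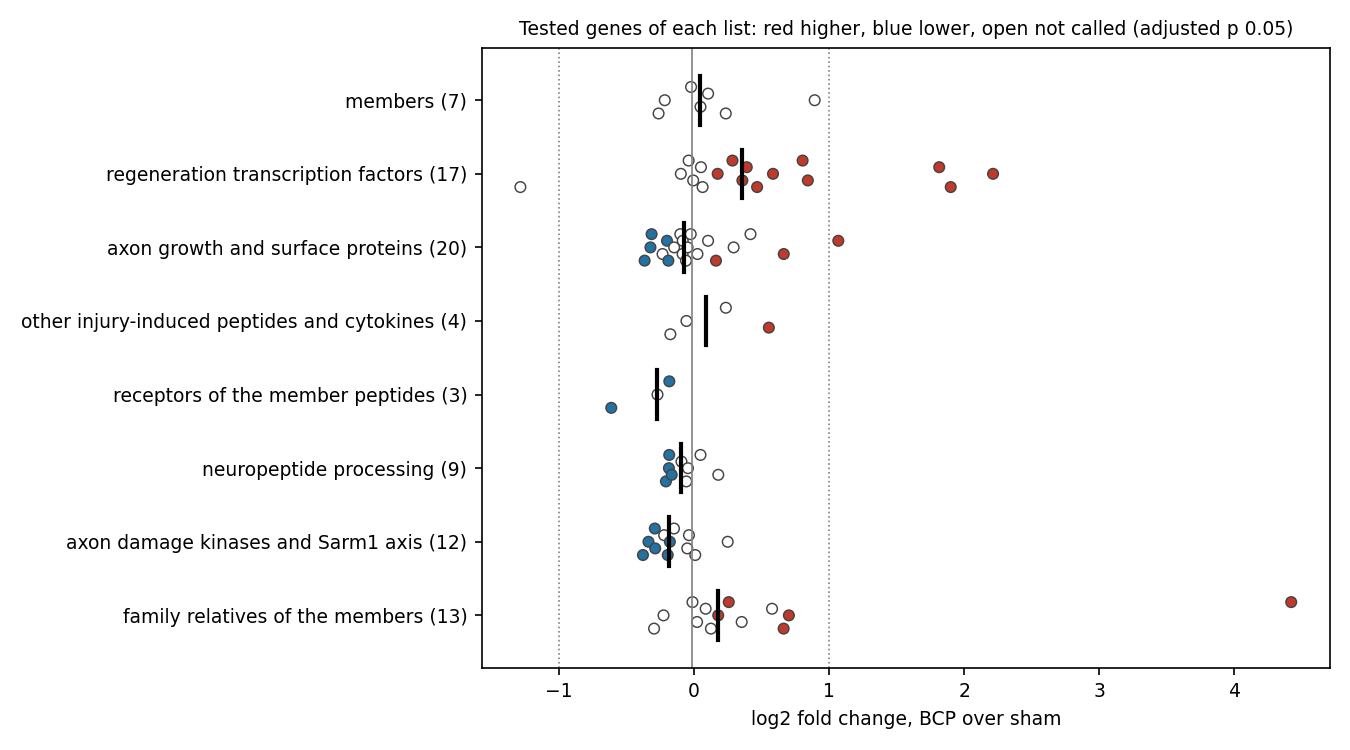
Log2 fold change of BCP over sham for every tested gene of the member list and of 7 related lists, with the number tested in brackets. Red points are higher and blue points lower at an adjusted p under 0.05, open points are not called, thick bars are list medians and the grey line is the median of all genes. All 7 points of the first row are open, and the point furthest right is Batf, whose fitted value depends on a near-zero sham count.

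Markers of several other cell types differed between the groups, while over all genes tested 15.8% were higher and 12.1% lower. Of 3 tested endothelial markers 0 were called, with a median log2 fold change of -0.06. Of 4 tested markers of Schwann cells and nerve root 0 were called, with a median of -0.31. Of 4 tested markers of meninges and fibroblasts 1 was lower and 0 higher. Of 6 microglial markers 5 were higher, and their summed level was 180 to 233 CPM in sham and 540 to 651 CPM in BCP, and that of T cell markers 0 to 0.458 CPM in sham and 11.5 to 18.8 CPM in BCP, with 4 of 4 tested higher and Cd3d at 0 in sham. Motor neuron markers summed to 370 to 426 CPM in sham and 312 to 373 CPM in BCP, ranges that overlap, with 2 of 4 tested lower. Oligodendrocyte markers, 5 of 5 lower, summed to 36685 to 41907 and 26259 to 29289 CPM in sham and BCP. Markers of dorsal root ganglion neurons summed to 24.6 to 26.7 CPM in sham and 17.5 to 20.0 CPM in BCP, with 1 of 6 tested lower and Mrgprd at 0 in all libraries. Calcb, which was not called, was the largest part of that sum, at a mean of 10.1 CPM in sham and 7.89 CPM in BCP. Of 8 markers of neurons in general 3 were lower, Rbfox3, Map2 and Slc6a5, and their sum was 4671 to 4962 CPM in sham and 4364 to 4620 CPM in BCP, without overlap. Of 5 astrocyte markers 1 was higher, Gfap at a log2 fold change of 0.80, and 2 were lower, Aldh1l1 and Slc1a2. The astrocyte sums were 3468 to 3796 CPM in sham and 5278 to 7036 CPM in BCP. Gfap was the largest part of them, at a mean of 2339 CPM in sham and 4075 CPM in BCP. The call of Atf3 turned on BCP 1 and on sham 1, and each stood apart in 1 astrocyte marker. BCP 1 was at 2415 CPM in the water channel gene Aqp4, beside 354 to 379 CPM in the other 5 libraries. That library also gave the highest astrocyte sum, 7036 CPM. Sham 1 was at 98.1 CPM in Slc1a3, beside 251 to 328 CPM in the other 5 libraries. The part of these shifts in the values of Atf3, Ecel1, the receptors and the lists was not tested.

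The annotation in the gene table carries its own terms, which were looked up after the values had been seen. The term for response to axon injury held 70 rows and none of the 8 genes. Of its 62 tested rows 11 were higher and 10 lower, with a median of 0.00, shares near the 15.8% and 12.1% of all genes tested. Adcyap1, Ecel1 and Gal were among the 87 rows of the neuropeptide signaling pathway. Of its 54 tested rows 2 were higher and 4 lower, both below those shares, a difference that was not tested. Axon regeneration, with none of the 8 genes, had 5 higher and 8 lower of 36 tested. Hormone activity, with Adcyap1, Gal and Vip, had 0 higher and 7 lower of 34, with a median of -0.23. Neuropeptide hormone activity, with Adcyap1 and Gal, had 0 higher and 2 lower of 11. In these last terms the counts of lower rows were above the 12.1% share, which was not tested either.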

How the data were processed

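RNA-seq libraries of 3 BCP and 3 sham samples of ipsilateral lumbar spinal cord were grouped by their labels. Reads were mapped to Rnor_6.0 with HISAT2 2.0.4 and expression was computed with StringTie 1.3.0, per the labels and the paper's methods. The authors deposited read counts per gene and per lncRNA and, beside them, FPKM values. How reads were counted, and whether by strand, is not given in the sources used here. Annotation columns were read for gene terms.

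The test was edgeR 4.0.16 (R 4.3.3) with filter by expression, TMM scaling (factors 0.982 to 1.02), a robust quasi-likelihood fit on condition and Benjamini-Hochberg adjustment over 14908 genes. A call required an adjusted p under 0.05, with an absolute log2 fold change over 1 where stated. FPKM served only to compare genes. Alternatives were DESeq2 1.42.0, other scalings and filters, the replicate block and each library left out. In simulated counts, 98% of 200 genes changed 4-fold were called among 14799, and 12 unchanged genes were called too. Every simulated gene had the same variation between replicates, the common biological coefficient of variation of 7.72%. The CPM of Atf3 had a coefficient of variation of 44.3% in sham and 28.1% in BCP. The simulation therefore does not show how often a smaller change in such a gene would be called.

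The members and lists were chosen with earlier results of these data known. To be named were all members and receptors and, in each other related list, genes past both thresholds plus up to 5 with the smallest p. Not all of these are printed, and a few genes outside the rule, such as Lif and Batf3, are. Markers are mostly given as counts and sums. Likewise, genes of similar pattern were to be named only for a called member, and there was none. Symbols not listed (Sox4, Vgf, Bbc3, Slc18a3, Pecam1, Myh4, Ier2) were not analysed here. Of the 8 related lists, 1 enters only the totals and is not reported here on its own.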

Additional observations from a re-analysis of the deposited data

How the results depend on the processing

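Under the alternatives, values of the 7 tested members kept their direction and side of the threshold in 71 of 84 cases, became called in 4 and changed sign in 9. Against 0 members called higher, DESeq2 called 1, and leaving out each library gave 0 to 1, in both cases Atf3; the count past 2-fold also ran from 0 to 1, and the libraries concerned were sham 1 and BCP 1. Against 0 called lower, upper quartile scaling called 1, Ecel1. The estimates that changed sign lay near 0. Adcyap1 was 0.0187 on the log2 scale with library size only, and with each library left out Gal ran from -0.0492 to 0.18, Vip from -0.23 to 0.38, Adcyap1 from -0.11 to 0.13 and Nts from -0.21 to 0.0631. Of the related lists, genes called lower numbered 19, with a range of 12 to 19 when each library was left out and the lowest without BCP 3; those lower past 2-fold ran from 0 to 1. Without a filter on low counts, 9 rather than 5 were higher past 2-fold. With the replicate block 0 members were called and Atf3 was at 0.91, and 21 listed genes were higher and 18 lower. Same-numbered samples correlated at -0.108, 0.0334 and -0.0375, and differently numbered ones at -0.108 to 0.131. These values gave no sign that the numbers pair samples, but with 3 samples per group they cannot exclude it. Scaling moved the median of all genes between -0.05 and 0.03. Counts of 14 to 40 for Vip and 19 to 34 for Sox11 limit what change could be seen in them.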
